A study of Arabidopsis thaliana with 42 samples.

Results

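The 8 Arabidopsis genes described here were chosen from the measured 60 min values, because their transcripts moved in the same direction in a GR-REV line and in a KAN1-GR line after dexamethasone. They are AT1G77380 (AAP3), AT3G08870 (LecRK-VI.1), AT3G22810 and AT5G42200, which were higher in both lines, and AT5G62730, AT5G17860 (CAX7), AT4G33050 (IQM1) and AT5G01740, which were lower in both. Each has 1 of the 22810 probe sets of the ATH1 array, and all 8 were among the 16129 probe sets tested. The question asked of them was how they behaved over all groups and whether wild-type seedlings moved too.

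RNA came from whole 7-day-old seedlings of the Columbia background in liquid culture, on 42 arrays in 14 groups of 3, each sample from a flask of its own. The 35S::GR-REV line was given 50 µM dexamethasone (DEX) for 0, 30, 60 or 120 min on day 1, the 35S::KAN1-GR line for 0, 30 or 60 min on day 2, and untransformed wild type for the same times beside each line. Wild-type plants thus received DEX as well, and the lines carried a transgene. Before DEX 15.9% of all probe sets already differed from wild type in GR-REV and 10.7% in KAN1-GR (limma, adjusted p under 0.05). Each construct is represented by 1 line, so the construct and other traits of its line cannot be told apart. It is driven by the constitutive 35S promoter rather than in the cells where the factor normally acts. Each probe set is given in log2 units centred on untreated wild type (6 arrays, both days), so levels of different genes cannot be set against each other and the tissue of origin could not be checked by marker levels. In whole seedlings, fewer cells of a type and less RNA per cell cannot be told apart.

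REVOLUTA (REV) is a class III homeodomain-leucine zipper transcription factor that promotes the upper (adaxial) side of leaves and the patterning of vascular tissue. KANADI1 (KAN1) is a GARP-family factor that promotes the lower (abaxial) side, and the 2 factors are best known for acting in opposite directions. Fusion to the glucocorticoid receptor (GR) domain holds a factor in the cytoplasm until DEX binds. AAP3 belongs to the amino acid permeases, membrane carriers that take up and move amino acids. LecRK-VI.1 is an L-type lectin receptor kinase, a membrane kinase with a lectin-like outer domain. CAX7 is named a calcium exchanger, of the carriers that move calcium and other cations across membranes, and IQM1 is a protein of the IQ-motif family, which binds the calcium sensor calmodulin. The gene table used here gives only a locus for the other 4 genes, so no role is stated for them.

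The transgenes were seen on the arrays. REV read 3.99 to 4.42 on the GR-REV arrays, against -0.05 to 0.45 in wild type of day 1, and KAN1 read 8.12 to 9.39 on the KAN1-GR arrays, against -0.18 to 0.50 in wild type of day 2. The pairwise correlation of arrays within a group was between 0.161 and 0.904. The median of all probe sets was 0.189 on wild-type replicate 2 at 120 min, the highest of any array.

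A line's response at 60 min is its change from 0 min less that of wild type of its day. Over the array, 4.36% of probe sets passed an adjusted p of 0.05 (limma, Benjamini-Hochberg) for the GR-REV response and 6.84% for the KAN1-GR response, and 0.508%, which is 82 probe sets, passed in both with the same sign. All 8 genes are among these 82, as their choice requires, so these values are descriptions and were not tested. Of the 82, 23 had risen and 59 had fallen, and another 96 probe sets passed in both lines with opposite signs. Ordered by the smaller of the 2 responses among the probe sets of a single gene, the 8 genes hold places 1, 2, 4, 5, 6, 7, 9 and 58. BEE1 at place 3 (GR-REV -1.80, KAN1-GR -2.44) and HB-2 at place 8 (1.69 and 1.66) were not on the list, and AT3G22810 at place 58 was.

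AAP3 (AT1G77380) was the gene whose mean on the GR-REV arrays kept rising through 120 min, and wild type rose too from 60 to 120 min. On the GR-REV arrays it read 0.91, 0.43 and 0.66 at 0 min, 0.73, 1.38 and 1.38 at 30 min, 1.59, 2.10 and 2.30 at 60 min, and 2.87, 2.65 and 2.91 at 120 min. On the KAN1-GR arrays it read 0.32, 0.30 and 0.30 at 0 min, 1.52, 1.46 and 1.67 at 30 min, and 2.21, 1.83 and 2.04 at 60 min. All 21 wild-type arrays lay between -0.66 and 0.45, with a median of -0.08. Every array of either line after DEX was thus above every wild-type array, and GR-REV already stood 0.79 ± 0.18 above wild type before DEX. At 30 min AAP3 was higher in GR-REV than in wild type by 1.39 ± 0.18 (log2 difference ± SE of the fit, adjusted p = 8.08e-07, limma, 2.63-fold). At 30 min in KAN1-GR the difference from wild type was 1.44 ± 0.18 (adjusted p = 4.27e-07, limma, 2.72-fold). By 120 min the GR-REV difference was 2.71 ± 0.18 (adjusted p = 8.75e-13, limma, 6.56-fold). AAP3 had by then risen further above wild type than at 30 min, by 1.32 ± 0.25 (adjusted p = 0.00283, limma).

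LecRK-VI.1 (AT3G08870) was higher in both lines at 30 and 60 min, and read within 0.01 of 0 on every GR-REV array at 120 min. The GR-REV values were 0.02, 0.24 and 0.29 at 0 min, 1.05, 0.93 and 0.39 at 30 min, 1.84, 2.24 and 1.56 at 60 min, and 0.00, 0.00 and -0.01 at 120 min. The KAN1-GR values were -0.11, -0.03 and -0.04 at 0 min, 2.39, 2.03 and 0.63 at 30 min, and 2.64, 2.35 and 2.27 at 60 min. The 12 wild-type arrays of day 1 ranged from -0.16 to 0.04 and the 9 of day 2 from -0.02 to 0.45. The standard deviation was 0.006 in GR-REV at 120 min and 0.004 in wild type of day 2 at 0 min, but 0.93 in KAN1-GR at 30 min. Absolute levels are lost, so whether the flat values lie at the floor of the array could not be checked. Of the KAN1-GR arrays at 30 min, replicate 3 lay far below the others, although above all of wild type. LecRK-VI.1 was higher than wild type at 30 min by 1.54 ± 0.23 in KAN1-GR (adjusted p = 1.38e-05, limma). In GR-REV it was higher by 0.81 ± 0.23 (adjusted p = 0.0244, limma). That GR-REV call was lost on leaving out any 1 of the 6 arrays compared except GR-REV replicate 3, with adjusted p-values up to 0.130. At 120 min its GR-REV values were 0.03 ± 0.23 from wild type (adjusted p = 0.962, limma). They were lower than at 30 min in the same line by -0.79 ± 0.23 (adjusted p = 0.0258, limma), a call that was lost without any 1 of those 6 arrays except replicate 3 at 30 min (adjusted p up to 0.135).

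AT3G22810 had the smallest SE of the 8 genes, and its 60 min response was larger in GR-REV (2.26) than in KAN1-GR (0.76). It read -0.50, -0.15 and 0.00 in GR-REV at 0 min, 0.95, 1.02 and 1.03 at 30 min, 1.98, 2.13 and 2.03 at 60 min, and 0.42, 0.48 and 0.30 at 120 min. In KAN1-GR it read 0.05, 0.01 and -0.09 at 0 min, 0.35, 0.57 and 0.04 at 30 min, and 0.53, 0.67 and 1.12 at 60 min. The 21 wild-type arrays ranged from -0.30 to 0.07. The GR-REV arrays at 30, 60 and 120 min were all above wild type, while 1 KAN1-GR array at 30 min was within the wild-type range. At 30 min AT3G22810 was higher in GR-REV than in wild type by 1.08 ± 0.13 (adjusted p = 4.85e-07, limma, 2.11-fold). The KAN1-GR difference of 0.38 ± 0.13 at 30 min missed the threshold (adjusted p = 0.0537, limma), but without KAN1-GR replicate 3 it was 0.52 with an adjusted p of 0.0147. In GR-REV the value at 120 min was lower than at 30 min by -0.60 ± 0.13 (adjusted p = 0.00353, limma). The fall of its difference from wild type over that interval, -0.72 ± 0.19, was just past the threshold (adjusted p = 0.0436, limma) and was lost without any 1 of the 12 arrays compared.

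AT5G42200 was above wild type on every 60 min array of both lines and nearer to it at 30 min. GR-REV read -0.22, -0.29 and -0.10 at 0 min, 0.42, 0.60 and 0.33 at 30 min, 1.38, 1.18 and 1.56 at 60 min, and 0.62, 0.48 and 0.21 at 120 min. KAN1-GR read -0.07, -0.03 and -0.47 at 0 min, -0.28, -0.26 and 0.08 at 30 min, and 1.11, 1.77 and 1.24 at 60 min. Wild type ranged from -0.36 to 0.58 on day 1 and from -0.84 to 0.06 on day 2. At 30 min KAN1-GR had stayed at its own starting level, with a change from 0 min of 0.03 ± 0.18, while wild type of the same day had changed by -0.48 ± 0.18. The difference from wild type at 30 min was 0.47 ± 0.18 in KAN1-GR (adjusted p = 0.0840, limma), and it passed without wild-type replicate 5 (0.59, adjusted p = 0.0475). In GR-REV the 30 min difference of 0.58 ± 0.18 passed (adjusted p = 0.0432, limma) but was lost without any 1 of the 6 arrays compared except wild-type replicate 2 (adjusted p up to 0.225).

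AT5G62730 had the largest 60 min response of the 8 genes in both lines (-2.88 in GR-REV, -3.14 in KAN1-GR), and wild type was scattered. The GR-REV response is made of -1.62 against wild type at 60 min and of 1.26 at 0 min. It was -3.46 to -2.27 over all arrays left out in turn, beside -2.72 for AT5G01740 with all arrays, so its rank in GR-REV is not firm. In GR-REV it read 0.61, 0.68 and 0.70 at 0 min, -0.34, -1.44 and -1.03 at 30 min, -2.10, -1.91 and -1.76 at 60 min, and -1.84, -1.84 and -2.69 at 120 min. In KAN1-GR it read -0.54, 0.22 and -0.91 at 0 min, -3.21, -2.32 and -3.97 at 30 min, and -3.99, -3.43 and -4.42 at 60 min. Wild type read -1.82, -0.54 and 0.57 at 0 min on day 1, and its 9 arrays of day 2 ranged from -1.03 to 0.16. All 6 KAN1-GR arrays after DEX were below every wild-type array, whereas the GR-REV arrays at 60 min reached into the range set by the lowest wild-type array. At 30 min AT5G62730 was lower in KAN1-GR than in wild type by -3.02 ± 0.47 (adjusted p = 1.82e-05, limma, 8.11-fold). The GR-REV difference at 30 min, -1.12 ± 0.47, missed the threshold (adjusted p = 0.148, limma). By 120 min it was lower in GR-REV by -2.30 ± 0.47 (adjusted p = 0.000535, limma, 4.93-fold), or by -1.62 after quantile normalisation of the arrays (adjusted p = 0.0544).

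CAX7 (AT5G17860), the calcium exchanger gene, fell within 30 min in KAN1-GR. KAN1-GR read 0.24, 0.52 and 0.14 at 0 min, -3.08, -3.28 and -3.35 at 30 min, and -2.70, -2.28 and -2.74 at 60 min. The 9 wild-type arrays of day 2 stayed between 0.27 and 0.58. CAX7 was thus lower in KAN1-GR than in wild type at 30 min by -3.71 ± 0.34 (adjusted p = 9.86e-10, limma, 13.1-fold). In GR-REV it read 0.54, 0.72 and -0.05 at 0 min, -0.03, -0.94 and -1.07 at 30 min, -1.95, -0.98 and -1.54 at 60 min, and -0.35, -0.34 and -1.35 at 120 min. The 12 wild-type arrays of day 1 ranged from -1.84 to 0.27. GR-REV overlapped wild type at 30, 60 and 120 min, and the line stood 1.35 ± 0.34 above wild type before DEX. The GR-REV difference from wild type was 0.18 ± 0.34 at 30 min (adjusted p = 0.852) and -0.46 ± 0.34 at 120 min (adjusted p = 0.431), neither past the threshold of the limma fit. The GR-REV response at 60 min that placed CAX7 on the list, -2.33 ± 0.48, is made of a value of -0.98 ± 0.34 against wild type at 60 min and of 1.35 at 0 min.

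IQM1 (AT4G33050), of the calmodulin-binding IQ-motif family, had the same build in GR-REV. Its GR-REV values were 1.21, 1.36 and 0.86 at 0 min, 0.83, 0.38 and 0.40 at 30 min, -0.39, -0.55 and -0.82 at 60 min, and -0.08, -0.24 and -0.38 at 120 min. Its KAN1-GR values were -0.02, -0.09 and 0.16 at 0 min, -1.21, -1.02 and -0.78 at 30 min, and -2.48, -0.98 and -2.60 at 60 min. Wild type ranged from -0.28 to 0.74 over its 21 arrays. All KAN1-GR arrays after DEX and all GR-REV arrays at 60 min were below every wild-type array. IQM1 was lower in KAN1-GR than in wild type at 30 min by -1.59 ± 0.24 (adjusted p = 1.73e-05, limma, 3.00-fold). The GR-REV difference was -0.06 ± 0.24 at 30 min (adjusted p = 0.945) and -0.48 ± 0.24 at 120 min (adjusted p = 0.205), both short of the limma threshold. Before DEX GR-REV was 1.07 ± 0.24 above wild type. Within GR-REV the fall from 30 to 120 min was -0.77 ± 0.24 (adjusted p = 0.0374, limma), lost without any 1 of the 6 arrays except replicate 2 at 30 min (adjusted p up to 0.180).

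AT5G01740 was low in GR-REV at 30 and 60 min and back at its starting level at 120 min. GR-REV read -0.22, 0.15 and 0.18 at 0 min, -2.96, -2.23 and -1.91 at 30 min, -2.51, -2.86 and -2.77 at 60 min, and -0.23, -0.01 and 0.29 at 120 min. KAN1-GR read 0.38, 0.61 and 0.45 at 0 min, -2.43, -2.04 and -0.95 at 30 min, and -1.01, -0.38 and -1.74 at 60 min. The 21 wild-type arrays ranged from -0.58 to 0.38. The lines separated fully from wild type at 30 min, and KAN1-GR overlapped it again at 60 min on 1 array. AT5G01740 was lower than wild type at 30 min by -2.19 ± 0.29 in GR-REV (adjusted p = 9.73e-07, limma, 4.58-fold). In KAN1-GR the difference was -1.94 ± 0.29 (adjusted p = 8.20e-06, limma, 3.84-fold). At 120 min the GR-REV difference was 0.24 ± 0.29 (adjusted p = 0.661, limma), and the return relative to wild type from 30 to 120 min was 2.43 ± 0.40 (adjusted p = 0.000545, limma, 5.41-fold).

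**Figure D1:**
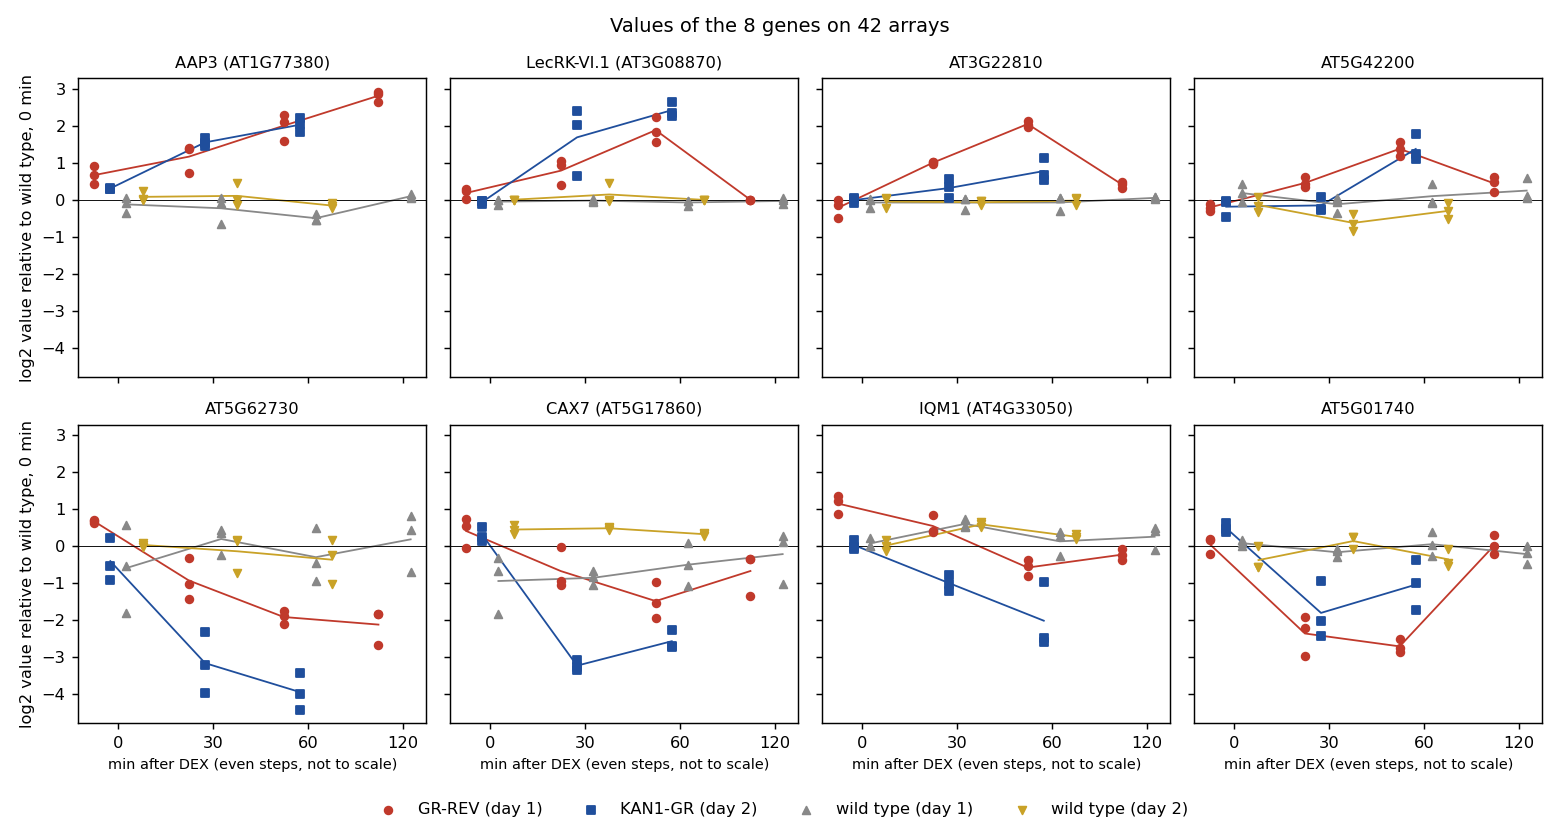
Each panel plots 1 gene, with 1 point per array (log2 value relative to wild type at 0 min, vertical axis) at each time after DEX (horizontal axis, even steps), and lines through the means of 3 arrays. GR-REV of AT5G01740 is down at 30 and 60 min and back near 0 at 120 min, while AAP3 is highest at 120 min.

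Between 0 and 60 min wild type changed by less than either line for all 8 genes, which did not hold at every time. From 0 to 60 min the 8 genes changed in wild type by -0.37 (AAP3) to 0.44 (CAX7) on day 1 and by -0.40 (AT5G62730) to 0.23 (IQM1) on day 2, all in the arrays used to choose the genes and therefore untested. Over the same 60 min the genes changed by -2.75 (AT5G01740) to 2.26 (AT3G22810) in GR-REV and by -3.54 (AT5G62730) to 2.48 (LecRK-VI.1) in KAN1-GR. AAP3 moved opposite to the lines in wild type on both days, by -0.37 ± 0.18 and -0.24 ± 0.18. IQM1 stood higher in wild type at 30 min than at 0 min by 0.53 ± 0.24 on day 1 and 0.57 ± 0.24 on day 2, opposite to its fall in the lines. AT5G01740 differed in wild type over the same 30 min by -0.25 ± 0.29 on day 1, the direction of its fall in the lines, and by 0.51 ± 0.29 on day 2. AT5G42200 differed in wild type over these 30 min by -0.30 on day 1 and -0.48 on day 2, where KAN1-GR changed by 0.03. AT5G62730 differed by 0.79 in wild type of day 1 (0.18 to 1.37 over all arrays left out in turn). At 120 min wild type of day 1 stood above its 0 min level by 0.78 for AT5G62730 and 0.73 for CAX7. These 30 and 120 min values use the 0 min arrays and were not tested. From arrays that the choice did not use, wild type at 120 min was set against wild type at 30 min. None of the 8 genes passed (limma), none had an unadjusted p under 0.05, and the differences were between -0.35 and 0.64, beside 6.81% of all probe sets that passed. The arrays of the 2 times did not overlap for 2 of the 8 genes, higher at 120 min for AAP3 and lower for IQM1, beside 26.2% of all probe sets without overlap.

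**Figure D2:**
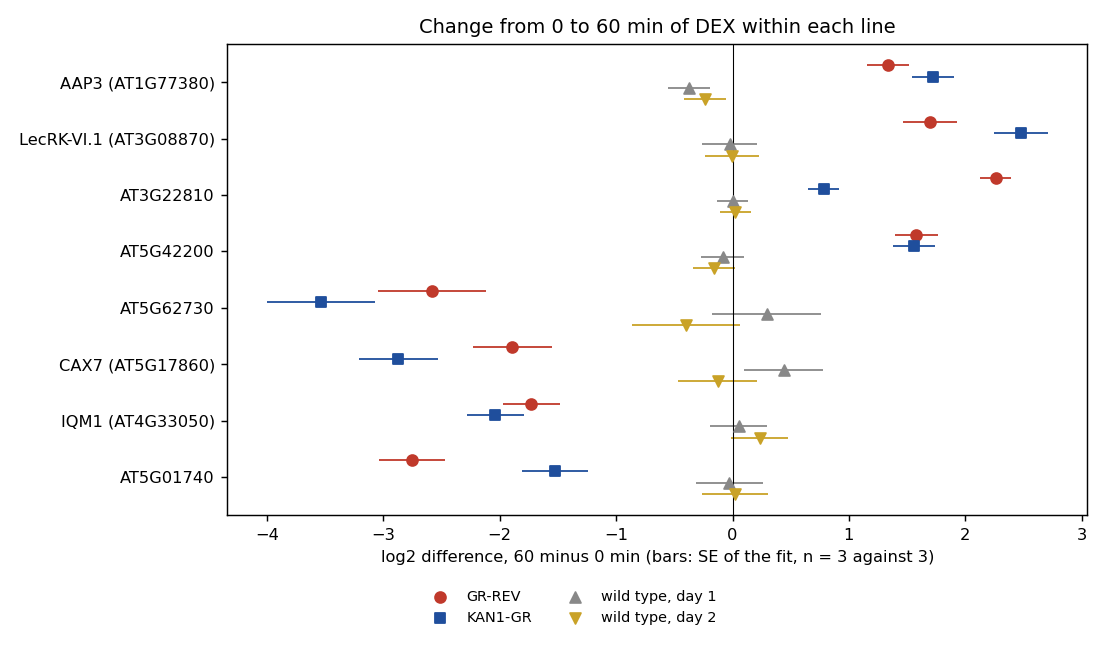
Change from 0 to 60 min of DEX within each line (log2 difference, horizontal axis) for the 8 genes, with SE bars of the fit from 3 arrays at each time. The wild-type points of both days lie between -0.40 and 0.44, and those of the lines lie outside that interval for all 8 genes.

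At 30 min, 5 of the 8 genes differed between GR-REV and wild type (4 higher, 1 lower), where 9.05% of all probe sets did. Between KAN1-GR and wild type, 6 of the 8 genes differed (2 higher, 4 lower), where 14% of all probe sets did. The arrays of line and wild type at 30 min did not overlap for 6 genes in GR-REV and for all 8 in KAN1-GR, against 28.6% (GR-REV) and 27% (KAN1-GR) of all probe sets. At 120 min, 2 of the 8 genes differed between GR-REV and wild type (AAP3 higher, AT5G62730 lower), against a background of 15.4%. The median difference of the 8 genes at 30 min was 0.38 in GR-REV and -0.60 in KAN1-GR, beside 0.00 and 0.01 over all probe sets. As the list was made of 4 genes that rose and 4 that fell, these medians lie between the 2 sets and give no direction. At 30 min only CAX7 differed in sign between the lines (0.18 in GR-REV, -3.71 in KAN1-GR). These comparisons set a line against wild type and so hold any difference that was present before DEX. Of 6 root hair, endodermis, phloem and xylem markers tested, 4 were lower in GR-REV than in wild type before DEX (range of the 6 from -1.47 to -0.33). The share of all probe sets called lower was 8.08%. At 30 min 2 were lower (-0.84 to -0.12), beside 4.32% of all probe sets, and at 120 min 5 (-1.42 to -0.76), beside 10.3%. In KAN1-GR at 30 min 2 of the 6 were lower (-0.99 to -0.01), beside 7.93%. Their part in the values of the 8 genes was not tested.

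**Figure D3:**
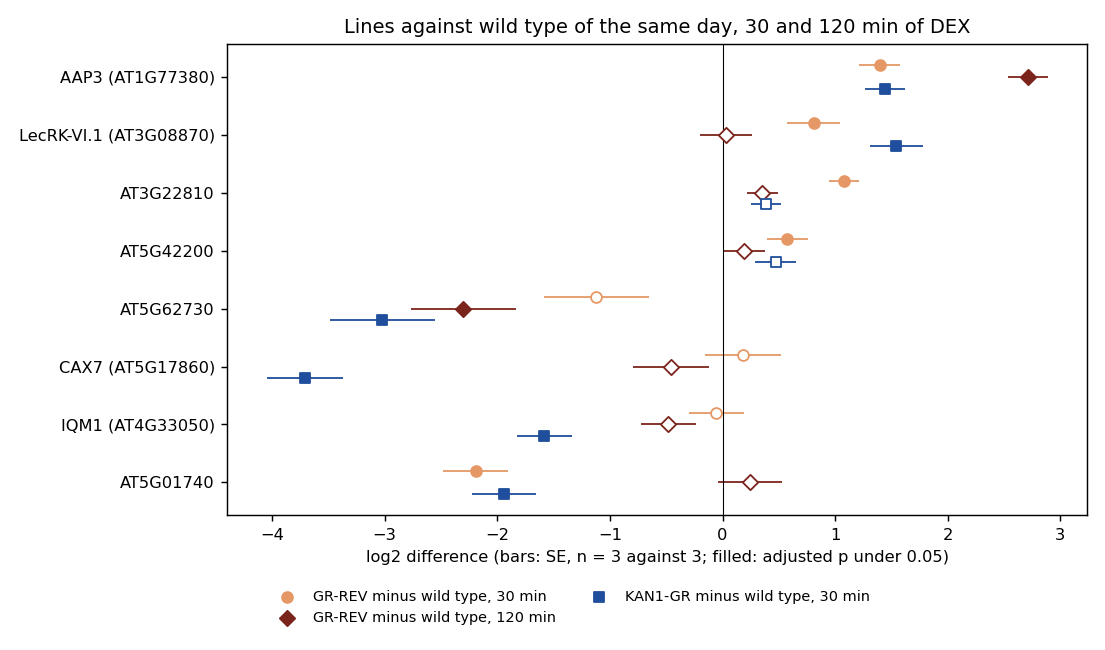
Difference of each line from wild type of the same day (log2, horizontal axis, bars are SE of the fit from 3 against 3 arrays) at 30 min and, for GR-REV, at 120 min; filled points passed an adjusted p of 0.05. CAX7 and IQM1 lie far below 0 in KAN1-GR at 30 min and near 0 in GR-REV at 30 min.

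At 30 min some of the genes stood at different distances from wild type in the 2 lines. These distances hold the level before DEX as well as the change since. The difference from wild type in GR-REV less that in KAN1-GR passed for 4 of the 8 genes, where 14.5% of all probe sets passed. CAX7 stood apart by 3.89 ± 0.48 (adjusted p = 3.61e-07, limma), with differences from wild type of 0.18 in GR-REV and -3.71 in KAN1-GR. IQM1 stood apart by 1.53 ± 0.35 (adjusted p = 0.00212, limma), with -0.06 in GR-REV and -1.59 in KAN1-GR. Before DEX, IQM1 had stood 1.07 above wild type in GR-REV and 0.01 above it in KAN1-GR, and its response at 30 min, the change since 0 min less that of wild type, was -1.13 ± 0.35 in GR-REV and -1.59 ± 0.35 in KAN1-GR. The responses at 30 min use the 0 min arrays and were not tested. AT3G22810 was further above wild type in GR-REV than in KAN1-GR by 0.69 ± 0.19 (adjusted p = 0.0115, limma), a call lost without KAN1-GR replicate 3 (0.55, adjusted p = 0.0561). AT5G62730 was less far below wild type in GR-REV by 1.90 ± 0.66 with an adjusted p of 0.0496 (limma), and this call was lost without any 1 of the 12 arrays except GR-REV replicate 2, KAN1-GR replicate 2 and wild-type replicate 6 (adjusted p up to 0.168). Before DEX, AT5G62730 had stood 1.26 above wild type in GR-REV and -0.44 from it in KAN1-GR, and its response at 30 min was -2.38 ± 0.66 in GR-REV and -2.58 ± 0.66 in KAN1-GR. The responses at 30 min of CAX7 were -1.17 ± 0.48 in GR-REV and -3.57 ± 0.48 in KAN1-GR, and those of AT3G22810 were 1.22 ± 0.19 in GR-REV and 0.34 ± 0.19 in KAN1-GR. For the other genes no difference between the lines was called. Their 95% intervals, not adjusted for the number of probe sets, were -0.57 to 0.47 for AAP3, -0.43 to 0.63 for AT5G42200, -1.07 to 0.57 for AT5G01740 and -1.41 to -0.06 for LecRK-VI.1. LecRK-VI.1 had an adjusted p of 0.141, and of 0.000108 without KAN1-GR replicate 3 (-1.26).

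The lines were grown on different days, each with its own wild type. Wild type at 30 min of day 1 set against day 2 differed for 1 of the 8 genes, CAX7, by -1.34 ± 0.34 (adjusted p = 0.00597, limma), where 19.4% of all probe sets differed. For AT5G42200 the same comparison gave 0.50 ± 0.18 (adjusted p = 0.0510, limma), and it passed without wild-type replicate 1 of day 1 (0.62, adjusted p = 0.0421) or replicate 5 of day 2 (0.62, adjusted p = 0.0312), either of which takes the count to 2. Each line was set against wild type of its own day throughout, but an effect of the day on a line's reaction cannot be told apart from the line.

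Within GR-REV, 5 of the 8 genes differed between 120 and 30 min (AAP3 and AT5G01740 higher, LecRK-VI.1, AT3G22810 and IQM1 lower), against 10.7% of all probe sets. AAP3 was higher at 120 min by 1.65 ± 0.18 (adjusted p = 1.84e-07, limma) and AT5G01740 by 2.38 ± 0.29 (adjusted p = 8.26e-07, limma). For 3 of the 8 genes, AAP3, AT5G01740 and AT3G22810, the change from 30 to 120 min also differed from that of wild type, where 1.54% of all probe sets did. By their means, AAP3 (2.50 at 60 min, 2.71 at 120 min) and AT5G62730 (-1.62 and -2.30) were farther from wild type in GR-REV at 120 min than at 60 min. The other 6 genes were closer to it, among them CAX7 (-0.98 and -0.46) and IQM1 (-0.71 and -0.48). The SE of the 120 min value was 0.18 for AAP3, 0.47 for AT5G62730, 0.34 for CAX7 and 0.24 for IQM1, so these steps are not firm. The 60 min values were used in the choice, and the steps from them are descriptive.

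**Figure D4:**
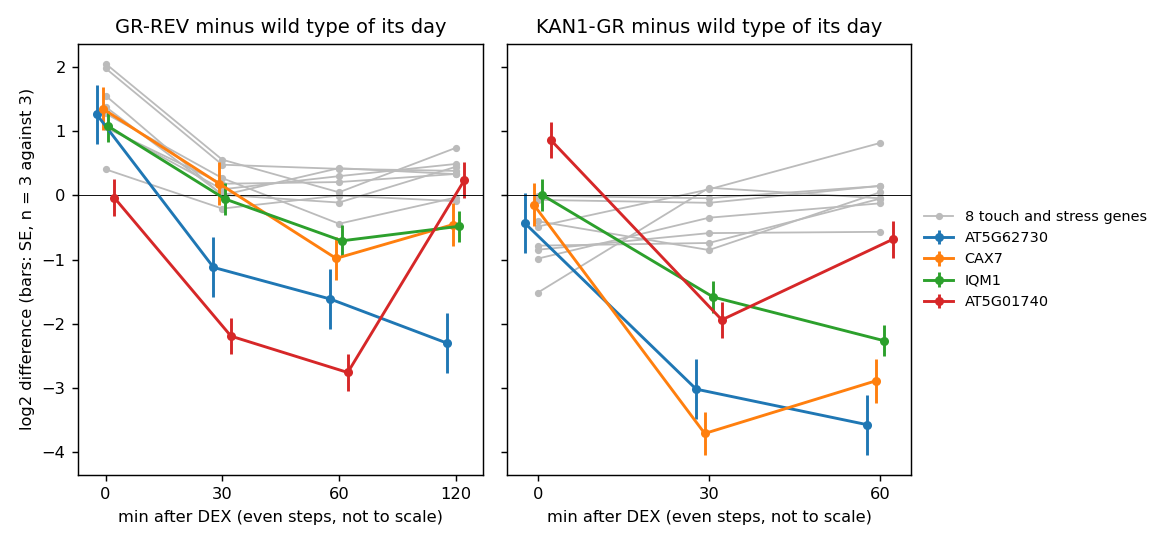
Difference of each line from wild type of its day (log2, vertical axis, SE bars for the 4 named genes) at each time after DEX for the 4 genes that were lower in both lines, and for 8 touch and stress genes in grey. In GR-REV the grey lines, AT5G62730, CAX7 and IQM1 all start above 0 at 0 min.

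Genes known to respond to touch and handling also started above wild type in GR-REV. Of 8 such genes (TCH2, TCH3, TCH4, WRKY40, WRKY33, ZAT12, ZAT10 and JAZ1), all 8 were higher in GR-REV than in wild type before DEX. They were higher by 0.41 to 2.05 with a median of 1.33, where 7.77% of all probe sets were called higher. At 30 min 0 of the 8 was called (limma, 0 also at an unadjusted p under 0.05, median 0.14, range -0.21 to 0.56). Wild type had part in this narrowing. From 0 to 30 min the median change of the touch genes was 0.57 in wild type of day 1, with 2 called higher beside 4.79% of all probe sets. In GR-REV it was -0.57, with 2 called lower beside 8.71% of all probe sets. Before DEX the values of AT5G62730, CAX7 and IQM1 were also above wild type in GR-REV, by 1.26 ± 0.47, 1.35 ± 0.34 and 1.07 ± 0.24, and that of AT5G01740 was not (-0.04 ± 0.29). The value of AT5G62730 was 0.65 without wild-type replicate 1 at 0 min, and 0.65 to 1.84 over all arrays left out in turn. A raised start was not limited to genes that fell, as AAP3 stood 0.79 above wild type in GR-REV before DEX. The other genes that rose stood at 0.23 (LecRK-VI.1), -0.14 (AT3G22810) and -0.39 (AT5G42200). In KAN1-GR the median difference of the touch genes from wild type was -0.63 at 0 min and -0.23 at 30 min, where CAX7 was down by -3.71 and IQM1 by -1.59. The part of the touch genes in the GR-REV values was not tested.

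Of the 6 other amino acid permeases tested, 5 were lower in GR-REV than in wild type at 120 min, where AAP3 was higher by 2.71. AAP2, a carrier of the phloem, was lower by -1.65 ± 0.17 (adjusted p = 1.07e-08, limma). AAP5 was lower by -1.35 ± 0.14 (adjusted p = 1.02e-08, limma) and AAP1 by -1.16 ± 0.16 (adjusted p = 1.96e-06, limma). AAP6 and AAP7 were lower by -0.78 ± 0.25 and -0.69 ± 0.18, and AAP4 was not called (0.19 ± 0.17). Both phloem markers measured, SUC2 and APL, were also lower in GR-REV at 120 min (-1.42 and -1.24), and their part in the values of the permeases was not tested. At 30 min only AAP2 of the 6 was called in GR-REV (-0.71 ± 0.17, adjusted p = 0.00538, limma), after standing at -1.14 ± 0.17 before DEX. In KAN1-GR at 30 min 0 of the 6 was called (limma, 2 at an unadjusted p under 0.05), with values of -0.25 to 0.54 beside 1.44 for AAP3.

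**Figure D5:**
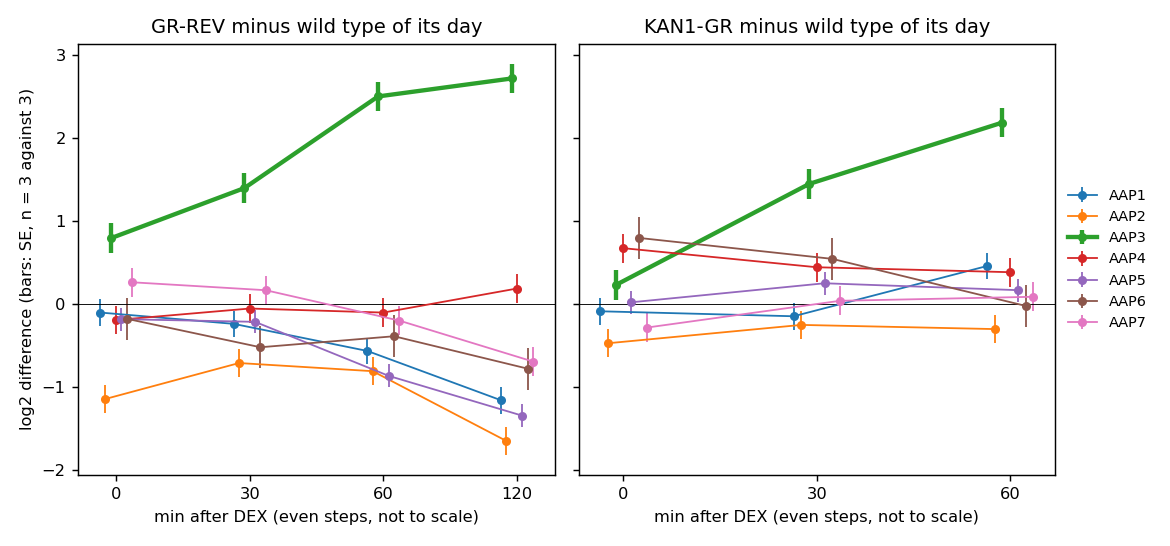
Difference of GR-REV (left) and KAN1-GR (right) from wild type of the same day (log2, vertical axis, bars are SE of the fit from 3 against 3 arrays) for AAP3, drawn thick, and 6 other amino acid permeases by time after DEX. AAP3 ends at 2.71 in GR-REV at 120 min and AAP2 at -1.65.

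LecRK-VI.1 has 2 tested relatives of its clade. Neither was called against wild type at 30 min in either line (limma, 1 with an unadjusted p under 0.05 in GR-REV and 0 in KAN1-GR). LECRKA4.1 (AT5G01540) was 0.73 ± 0.26 above wild type in GR-REV (adjusted p = 0.0737, limma) and -0.49 ± 0.26 from it in KAN1-GR (adjusted p = 0.216, limma). In GR-REV this gene stood 2.54 ± 0.26 above wild type before DEX (adjusted p = 1.07e-08, limma) and its response at 60 min was -2.40 ± 0.36 (adjusted p = 6.29e-05, limma), opposite in sign to the 1.72 of LecRK-VI.1. In KAN1-GR LECRKA4.1 stood -1.30 from wild type before DEX (called lower, limma). Within that line it rose by 1.01 from 0 to 30 min and by 1.34 from 0 to 60 min, both called higher. Its KAN1-GR responses, 0.81 at 30 min and 0.99 at 60 min, had the sign of LecRK-VI.1 but were not called. At 120 min LECRKA4.1 was higher in GR-REV than in wild type by 0.94 ± 0.26 (adjusted p = 0.0103, limma). LECRKA4.2 (AT5G01550) was lower in GR-REV at 120 min by -0.39 ± 0.13 (adjusted p = 0.0322, limma). Of the cation exchangers named beside CAX7, CCX4 and CAX11 were tested and neither was called against wild type in GR-REV at 30 or 120 min or in KAN1-GR at 30 min (limma, -0.22 to 0.58), with 1 value, that of CAX11 in GR-REV at 120 min, at an unadjusted p under 0.05.

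Over the 14 group means, Pearson's r among the 8 genes was highest between AT5G62730 and IQM1 (0.917) and between AT5G62730 and CAX7 (0.859). AT3G22810 and AT5G42200 had an r of 0.820, and AT3G22810 ran against AT5G01740 (-0.860). The probe sets outside the list with the pattern most like AAP3 were AT1G02300 (0.950) and AT5G55640 (0.942). Those most like LecRK-VI.1 were AT3G05400 (0.957) and AT5G05090 (0.922), and those most like AT5G62730 were NET1B (0.940) and MYB48 (0.919). CAX7 was followed most closely by ICK1 (0.929), IQM1 by AT3G45260 (0.925), AT3G22810 by AT1G28260 (0.933), AT5G42200 by MYB106 (0.923) and AT5G01740 by AT5G05790 (0.868). The points share arrays, days and the wild-type reference, and they include the groups used to choose the 8 genes. That choice favours a positive r among genes that rose or among genes that fell, and a negative r between risen and fallen genes. These correlations are therefore descriptions.

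In the authors' deposited table, the two-way ANOVA (genotype by time) of GR-REV and wild type gave CAX7 a p of 0.261. In the authors' deposited table the same ANOVA gave the other members between 1.70e-08 (AT3G22810) and 0.0285 (AT5G62730). For KAN1-GR and wild type, the p-values of the authors' deposited table ran from 2.37e-05 (AAP3) to 0.0221 (AT3G22810). These p-values include the 60 min arrays used in the choice.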

How the data were processed

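The deposited log2 values were made by the authors with GCRMA, per the submitters' processing notes; its version is not given in the sources used here, and the log base was taken from the method. A check of the values showed each probe set centred on the untreated wild-type arrays, so absolute levels are lost. A second table, which per the file headers adds a two-way ANOVA by the authors, held the same values (largest difference 0). Probe sets with an ANOVA p-value, less 35 controls, were tested (16129).

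Groups follow the labels (line, time, day of collection). The fit was limma 3.58.1 in R 4.3.3 with a mean per group over all 42 arrays (28 residual and 3.92 prior degrees of freedom), two-sided moderated tests and Benjamini-Hochberg adjustment over all tested probe sets, at a threshold of 0.05. The fit was tested on simulated data. Precision is limited by 3 arrays a group, with a median SE of 0.150 for a difference of 2 groups and 0.213 for a response.

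The members and lists were chosen with earlier results of these data known. The choice used the arrays at 0 and 60 min, so for the 8 genes only the 8 comparisons made of 30 and 120 min arrays were tested. Named genes were the 8 genes, the 2 transgenes, 3 families and, per gene, the probe sets of 1 gene with the most similar group means. Families whose genes the gene table (RefSeq, TAIR10.1) does not name were left out. Alternatives were quantile normalisation, median centring, all probe sets, array weights, an unmoderated spread, the arrays of 1 day, a replicate block and leaving out each array. Same-numbered arrays of day 1 were not taken to pair in general: 26 of 84 pairs correlated above 0.1 (range -0.380 to 0.457). All 3 pairs did so for wild type at 30 with 120 min (0.285, 0.130 and 0.135), where the block left the count of the 8 genes called at 0, and for GR-REV at 0 with 60 min (0.135, 0.270 and 0.217), which was not tested for the 8 genes.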

Additional observations from a re-analysis of the deposited data

Results flagged for a closer look

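For 3 genes the difference between GR-REV and wild type itself changed from 30 to 120 min, by the interaction contrast of the limma fit. The change was 2.43 ± 0.40 for AT5G01740 (from 30 to 120 min, GR-REV less wild type, adjusted p = 0.000545), 1.32 ± 0.25 for AT1G77380 (AAP3, adjusted p = 0.00283) and -0.72 ± 0.19 for AT3G22810 (adjusted p = 0.0436). The change of AT3G22810 was called in only 2 of 19 alternative fits, and those of AT5G01740 and AAP3 in all 19.

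For 4 genes the difference from wild type at 30 min was not the same in the 2 lines, by the contrast of GR-REV less KAN1-GR in the limma fit. It was 3.89 ± 0.48 for AT5G17860 (CAX7, adjusted p = 3.61e-07), 1.53 ± 0.35 for AT4G33050 (IQM1, adjusted p = 0.00212), 0.69 ± 0.19 for AT3G22810 (adjusted p = 0.0115) and 1.90 ± 0.66 for AT5G62730 (adjusted p = 0.0496). AT5G62730 was called in only 5 of 17 alternative fits, AT3G22810 in 15, and CAX7 and IQM1 in all 17. All 4 differences hold the level before DEX. IQM1 had then stood 1.07 above wild type in GR-REV and 0.01 above it in KAN1-GR, and AT5G62730 1.26 above it in GR-REV and -0.44 from it in KAN1-GR. CAX7 had stood 1.35 above it in GR-REV and -0.14 from it in KAN1-GR, and AT3G22810 -0.14 from it in GR-REV and 0.04 above it in KAN1-GR. The change since 0 min less that of wild type, which was not tested, was -1.13 ± 0.35 in GR-REV and -1.59 ± 0.35 in KAN1-GR for IQM1, and -2.38 ± 0.66 in GR-REV and -2.58 ± 0.66 in KAN1-GR for AT5G62730. For CAX7 it was -1.17 in GR-REV and -3.57 in KAN1-GR, and for AT3G22810 1.22 in GR-REV and 0.34 in KAN1-GR.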

How the results depend on the processing

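Of 26 calls over the 8 genes and 8 comparisons, 17 were kept under every alternative run, among them all those of AAP3, AT5G01740 and CAX7 and all those of KAN1-GR against wild type at 30 min, and 9 were lost under some. Of 38 values that were not called, 6 were called under some alternative. No called value changed sign. Quantile normalisation gives every array the same spread, which the deposited, centred values did not have. The interquartile range over tested probe sets was 0.18 to 0.28 in wild type of day 2 at 0 min and 0.40 to 0.46 in GR-REV at 60 min. After quantile normalisation the number of the 8 genes called was 3 in place of 5 for GR-REV against wild type at 30 min, 1 in place of 2 at 120 min, 2 in place of 5 for GR-REV at 120 against 30 min, 2 in place of 4 for GR-REV against KAN1-GR at 30 min, and 2 in place of 1 for wild type of day 1 against day 2. With array weights the last was also 2. AT5G42200 in KAN1-GR at 30 min was 0.86 after quantile normalisation (adjusted p = 0.00877), AT3G22810 in GR-REV at 120 against 30 min was -0.39 (adjusted p = 0.138), and AT3G22810 in GR-REV less KAN1-GR was 0.43 (adjusted p = 0.154); the cause was not tested. With array weights AT5G62730 passed in GR-REV against wild type at 30 min (-1.30, adjusted p = 0.0302), and AT3G22810 passed in GR-REV at 120 min (0.40, adjusted p = 0.0169). Leaving out 1 array gave 3 to 4 genes for GR-REV against wild type at 30 min, where 3 remained without wild-type replicate 1 or 3 or GR-REV replicate 1 or 2. It gave 3 to 4 for GR-REV at 120 against 30 min, where 3 remained without replicate 1 at 30 min or any replicate at 120 min, and 1 to 2 for wild type of day 1 against day 2. With a replicate block on the day 1 arrays the counts were 4, 2, 0, 5 and 2 in the comparisons of day 1, beside 5, 2, 0, 5 and 3 without it, and the lost calls were AT5G42200 at 30 min (adjusted p = 0.0524) and AT3G22810 in the change from 30 to 120 min (adjusted p = 0.0525). KAN1-GR and wild type of day 2 share no replicate number, so no block could be fitted there. The 60 min responses kept their signs throughout, with values of -2.19 to 1.72 in GR-REV and -2.29 to 1.93 in KAN1-GR after quantile normalisation.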
